A study of Homo sapiens with 40 samples.

Results

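The genes described here are 33 enzymes and regulators of cholesterol and fatty acid synthesis, measured in spheroids of 2 squamous cancer cell lines kept with or without epidermal growth factor (EGF). They were taken by gene symbol from a list of pathway members, and the rule uses no measured value. The list was, however, chosen with earlier results of these data known. All 33 symbols were among the 12655 genes of the count table, and all 33 passed the filter on low counts in each fit. By role, 9 act in the mevalonate and squalene steps, 9 in the lanosterol and later sterol steps, 4 are regulators or sterol carriers, 4 make fatty acids, 5 elongate or desaturate them, and 2 activate fatty acids or assemble lipids.

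FaDu is a line from a hypopharyngeal tumour and Kyse30 a line from an oesophageal squamous carcinoma. Both carried Dendra2, a photoconvertible fluorescent protein used to mark chosen cells by light, and no other genotype is given than wild type. Spheroids of each line were embedded in type I collagen made up in serum-free medium and treated for 72 h. The groups received no addition (serum-free), 9 nM EGF, 9 nM EGF with 10 µg/mL cetuximab (an antibody against the receptor of EGF), or 9 nM EGF with 100 nM AZD6244 (an inhibitor of the kinase MEK, which acts below that receptor). Spheroids under EGF alone gave an invasive and a non-invasive group, and the cells were recovered by collagenase and sorted. The 3 other groups are labelled as unselected, so a comparison of EGF alone with any of them also changes how the cells were picked, and these cannot be told apart. Comparisons among the serum-free, cetuximab and MEK inhibitor groups do not have that difference. Each line gave 4 libraries in each of 5 groups, 40 in all. Several spheroids were pooled per treatment, and the labels do not say whether replicates were cultured separately.

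Cells make cholesterol from acetyl-CoA through mevalonate, squalene and lanosterol, and make fatty acids from the same acetyl-CoA pool. Both routes are controlled by the sterol regulatory element binding proteins (SREBPs), which are held in the endoplasmic reticulum by INSIG proteins when sterol is plentiful and are cut free to enter the nucleus when it is scarce. INSIG1 and both SREBP genes, SREBF1 and SREBF2, are themselves known SREBP targets. Growth factor signalling is known to raise SREBP activity in several epithelial tumours.

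Promoters of 29 of the 33 members were found by symbol in the RefSeq promoter table (GRCh38.p14), which holds 250 bases before to 50 bases after each start. They were searched on both strands for letters known from SREBP target promoters: the sterol regulatory element TCACNCCAC, the E box CACGTG, and the box bound by the factor NF-Y, CCAAT. The last reads ATTGG on the other strand. CCAAT was in 79.3% of the 29 members, in 43.8% of 9812 genes of the count table and in 39.7% of all 27305 genes with a promoter of this length. TCACNCCAC was in 1 member, SREBF2, and in 1.39% of all genes, and CACGTG was in 13.8% of the members, 12.6% of the genes of the count table and 8.77% of all genes. These are matches of letters only. The stretches below are from 5 members whose levels are followed through the results, with the motif matches in capitals (the NF-Y box on either strand, and in SREBF2 also the sterol regulatory element). They lie on chr22:41832955-41833014 (plus strand), chr5:43313502-43313582 (minus strand), chr1:155308676-155308756 (plus strand), chr7:155297693-155297778 (plus strand) and chr10:100346993-100347062 (plus strand), each within the 300-base window of its gene.
SREBF2: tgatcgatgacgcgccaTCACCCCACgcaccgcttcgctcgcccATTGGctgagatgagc
HMGCS1: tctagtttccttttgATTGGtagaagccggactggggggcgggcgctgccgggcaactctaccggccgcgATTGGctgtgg
FDPS: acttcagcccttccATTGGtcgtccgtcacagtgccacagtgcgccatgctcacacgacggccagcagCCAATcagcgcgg
INSIG1: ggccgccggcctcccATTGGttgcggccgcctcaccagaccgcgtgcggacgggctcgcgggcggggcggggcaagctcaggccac
SCD: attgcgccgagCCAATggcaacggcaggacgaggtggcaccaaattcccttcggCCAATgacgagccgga

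Levels are counts per 1000000 counts of the library (CPM), with library sizes scaled by the trimmed mean of M-values (TMM). Fold changes are log2 with their standard error (SE) from edgeR's quasi-likelihood test, and a gene is called when its p-value, adjusted by Benjamini-Hochberg over all genes tested, is below 0.05. Libraries held 2312126 to 5669262 counts, except Kyse30 invasive replicate 1 with 463124 counts. In that library 12 members had 0 counts, which by counting error alone allows levels up to 6.48 CPM for each (3 counts). That bound may be too low. IDI1 was among the 12 and was at 133 to 187 CPM in the other Kyse30 invasive libraries. The library also had only 5281 genes detected, against 11631 to 12455 in the others. Since its spread enters every Kyse30 test, Kyse30 results are given over all 20 libraries and again over the 19 others. Kyse30 non-invasive replicates 1 and 3 had 6.27% and 9.63% of counts from the nuclear RNA MALAT1 and 17.4% and 19.3% from mitochondrial genes. The other non-invasive replicates had 1.68% and 1.91% from MALAT1. Of 10 squamous epithelial markers, 9 were in the table, and their sum was above 0 in all 40 libraries. Single genes stood for the other cell types: COL1A1 for fibroblasts (1 of 8 markers), CD68 for leukocytes (1 of 4) and CDH5 for endothelium (1 of 4). Levels of these cell type markers are CPM of the library total, without TMM scaling.

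In FaDu, most of both pathways was higher in the non-invasive cells under EGF than in serum-free spheroids. Of the 33 members 24 rose and 2 fell, where 25.3% of all genes were called higher and 24.7% lower. The median log2 fold change was 1.20 over the members and -0.02 over all 12131 genes tested. The 4 libraries of each group did not overlap for 27 members that were higher, against 28% of all genes. The summed level of the 18 sterol enzymes was 764 ± 10.8 CPM (SD, n = 4) in serum-free and 2342 ± 150 CPM (n = 4) in the non-invasive cells. That of the 9 fatty acid enzymes was 1158 ± 39.5 CPM and 2293 ± 95.1 CPM (n = 4 each).

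In Kyse30 the same comparison called 17 of 33 members higher and none lower over 20 libraries (background 8.1% higher and 4.76% lower), and 24 higher and 0 lower over 19 libraries (background 15.9% higher). The median log2 fold change of the members was 1.28, against 0.03 over the 11976 genes tested. The summed sterol enzymes went from 625 ± 18.2 CPM to 2022 ± 595 CPM, and the fatty acid enzymes from 680 ± 45.7 CPM to 3154 ± 922 CPM (SD, n = 4 each). For 20 members the higher group did not overlap serum-free, against 13.5% of all genes. In bulk RNA such as this, fewer cells of a type and less RNA per cell cannot be told apart.

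Other measures moved with these groups. Mitochondrial genes held 14.3% to 15.8% of FaDu serum-free counts and 7.50% to 11.5% of non-invasive counts. In Kyse30 the ranges were 19.7% to 23.8% and 8.22% to 19.3%. MALAT1 held 1.01% to 1.27% of Kyse30 serum-free counts and 1.68% to 9.63% of Kyse30 non-invasive counts, without overlap. In FaDu its ranges overlapped. COL1A1 was at 17.5 to 23.2 CPM in FaDu serum-free and 4.27 to 10.4 CPM in FaDu non-invasive libraries. CDH5 was at 15.6 to 32.8 CPM in Kyse30 serum-free and 3.23 to 5.66 CPM in Kyse30 non-invasive libraries. The summed squamous markers were at 735 to 842 CPM in Kyse30 serum-free and 1335 to 2339 CPM in Kyse30 non-invasive libraries. Of 12 DNA replication genes, 12 rose in FaDu, with a median log2 fold change of 2.16, and 0 rose and 1 fell in Kyse30. The part of these in the results on synthesis genes was not tested.

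**Figure D1:**
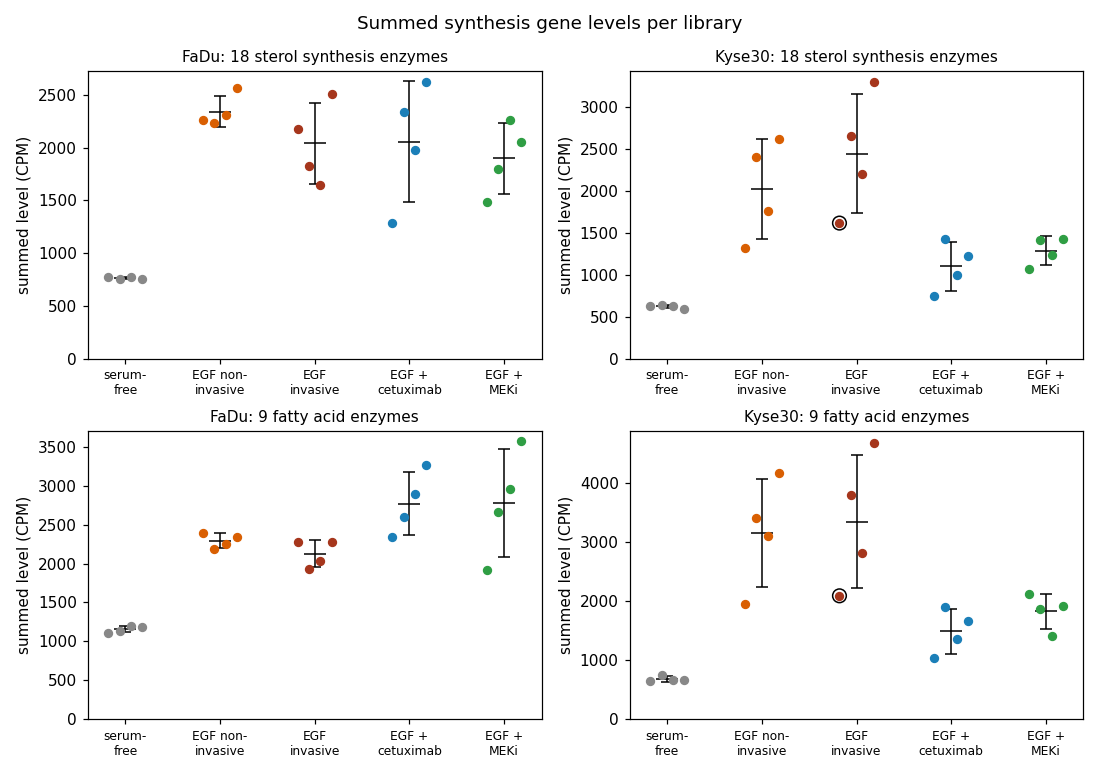
Summed level in CPM of the 18 sterol synthesis enzymes (top) and 9 fatty acid enzymes (bottom) in each library of FaDu (left) and Kyse30 (right). Points are libraries, bars are mean ± SD (n = 4), and the ringed point is the shallow Kyse30 invasive library. In both lines the serum-free libraries lie lowest, and in Kyse30 the cetuximab and MEK inhibitor libraries lie mostly below the EGF libraries.

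The mevalonate and squalene steps, which turn acetyl-CoA into squalene epoxide, rose almost throughout in FaDu: 8 of 9 members were called higher and 1 lower. HMGCS1, the synthase that makes the precursor of mevalonate, was at 103, 103, 87.1 and 99.6 CPM in the 4 serum-free libraries and 370.4, 421, 372 and 484 CPM in the non-invasive ones. FDPS, the synthase of farnesyl diphosphate, was at 65.4, 69.4, 61.3 and 54.7 CPM and then 271, 236, 267 and 279 CPM. SQLE, the epoxidase that commits squalene to sterols, was at 185, 166, 172 and 177 CPM and 595, 626, 664 and 765 CPM. None of these 3 overlapped between groups. Their log2 fold changes were 2.07 ± 0.24 (adjusted p = 3.7e-07), 2.07 ± 0.22 (adjusted p = 6.5e-08) and 1.92 ± 0.18 (adjusted p = 1.7e-09). ACAT2, the thiolase of the first step, stood at 10.2, 10.3, 11.6 and 13.1 CPM in serum-free and 38.3, 35.4, 57.3 and 39.9 CPM in non-invasive libraries, a log2 fold change of 1.91. Its exons overlap those of TCP1 on the other strand, and the strand setting of the counts is unknown. MVD, IDI1 and FDFT1, which decarboxylate, isomerise and join the isoprenoid units, rose by 1.16, 1.20 and 1.24 on the log2 scale. MVK, mevalonate kinase, rose by 0.74, and its exons overlap MMAB on the other strand.

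PMVK, the kinase that follows MVK, went the other way in FaDu. It was at 38.4, 43.2, 42.3 and 45.4 CPM in serum-free and 19.7, 20.7, 17.6 and 22.5 CPM in non-invasive libraries, a log2 fold change of -1.07 ± 0.21 (adjusted p = 1.1e-04), and the groups did not overlap. In Kyse30, PMVK was at 29.3, 8.67, 29.5 and 22.9 CPM and 17, 33.1, 19.2 and 29.1 CPM, overlapping and not called (0.14 ± 0.46). In the fit over both lines, PMVK had a called difference only without the shallow library, 1.22 ± 0.36 (adjusted p = 0.011). Over all 40 libraries the difference had an adjusted p of 0.086.

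In Kyse30, 7 of these 9 genes were called higher over 20 libraries and 8 of 9 over 19 libraries. SQLE was at 19.4, 32.4, 18.9 and 30.1 CPM in serum-free and 80.2, 146, 173 and 179 CPM in non-invasive libraries, and its log2 fold change of 2.52 ± 0.51 was the second largest of the 33 (adjusted p = 0.0014). HMGCS1 was at 60.8, 67.8, 54.6 and 54.7 CPM and 131, 227, 206 and 346 CPM, a change of 1.93. Non-invasive replicate 1 was the lowest of its group in both genes but above every serum-free library. FDPS was at 83.5, 71.6, 92 and 84.7 CPM and 182, 209, 217 and 274 CPM (log2 fold change 1.41). ACAT2, at 19.4, 13.2, 13 and 33.5 CPM and 28.6, 69.5, 50.8 and 77.1 CPM, overlapped between the groups and was called all the same (1.53, adjusted p = 0.048). This call of ACAT2 was lost in 11 of 18 other settings, with adjusted p up to 0.17. IDI1, FDFT1 and MVD rose by 2.01, 1.86 and 1.22, and of these IDI1 and MVD lost their calls in 5 and 7 of 18 settings.

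Of the 9 genes that turn squalene epoxide into cholesterol, 7 rose and 1 fell in FaDu. MSMO1, the oxidase that removes methyl groups from the sterol ring, was at 39.2, 40.8, 39.7 and 41.3 CPM in serum-free and 144, 150.0, 141 and 150.0 CPM in non-invasive libraries (1.86 ± 0.28, adjusted p = 1.6e-05). DHCR7, the reductase of the last step to cholesterol, was at 27.8, 29.3, 37.4 and 29.5 CPM and 107, 109, 112 and 115 CPM (log2 fold change 1.83). EBP, a sterol isomerase, went from 44.3 ± 2.02 CPM to 152 ± 5.11 CPM (SD, n = 4 each; 1.78). In each of these 3 genes every non-invasive library was above every serum-free one. CYP51A1, the demethylase of lanosterol, rose by 1.68, the dehydrogenase NSDHL by 1.23 and the reductase HSD17B7 by 1.45. A pseudogene of HSD17B7 is also in the table, so that reads of the 2 may be split. LSS, lanosterol synthase, was at 15.9, 12.9, 17.9 and 16.4 CPM and 28.7, 28, 31 and 29.3 CPM (0.89). SC5D, a sterol desaturase, was not called (-0.18 ± 0.27).

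TM7SF2, a sterol reductase whose step can also be carried out by the lamin B receptor, fell in FaDu. Its 4 serum-free libraries were at 8.17, 12.7, 8.23 and 7.81 CPM and the non-invasive ones at 5.83, 2.80, 4.68 and 2.90 CPM, which do not overlap (-1.18 ± 0.39, adjusted p = 0.012). In Kyse30 it was at 20.1, 23.5, 16.5 and 25.4 CPM and 16, 11.9, 13.1 and 14.7 CPM, again without overlap but not called (-0.62 ± 0.46, adjusted p = 0.43). Its exons overlap those of VPS51 on the same strand. Levels this low rest on few reads and carry more counting error than the rest of the pathway.

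The later sterol enzymes of Kyse30 gave 4 calls higher over 20 libraries (LSS, MSMO1, EBP and DHCR7) and 6 over 19 (with CYP51A1 and NSDHL). MSMO1 was at 35.9, 30.5, 36.2 and 19.5 CPM in serum-free and 89.3, 222, 99.7 and 191 CPM in non-invasive libraries (2.30 ± 0.37, adjusted p = 1.1e-04). LSS was at 16.1, 22.2, 14.5 and 11 CPM and 45.3, 76.5, 54.7 and 83.9 CPM (2.02). DHCR7 was at 155, 177, 139.5 and 128 CPM and 372, 739, 447 and 697 CPM (1.91). In all 3 genes, non-invasive replicates 1 and 3, the libraries with high MALAT1, were below replicates 2 and 4. HSD17B7, at 0.321 to 5.51 CPM and 4.40 to 5.85 CPM, and SC5D, at 8.43 to 16.5 CPM and 12 to 22.7 CPM, overlapped and were not called.

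**Figure D2:**
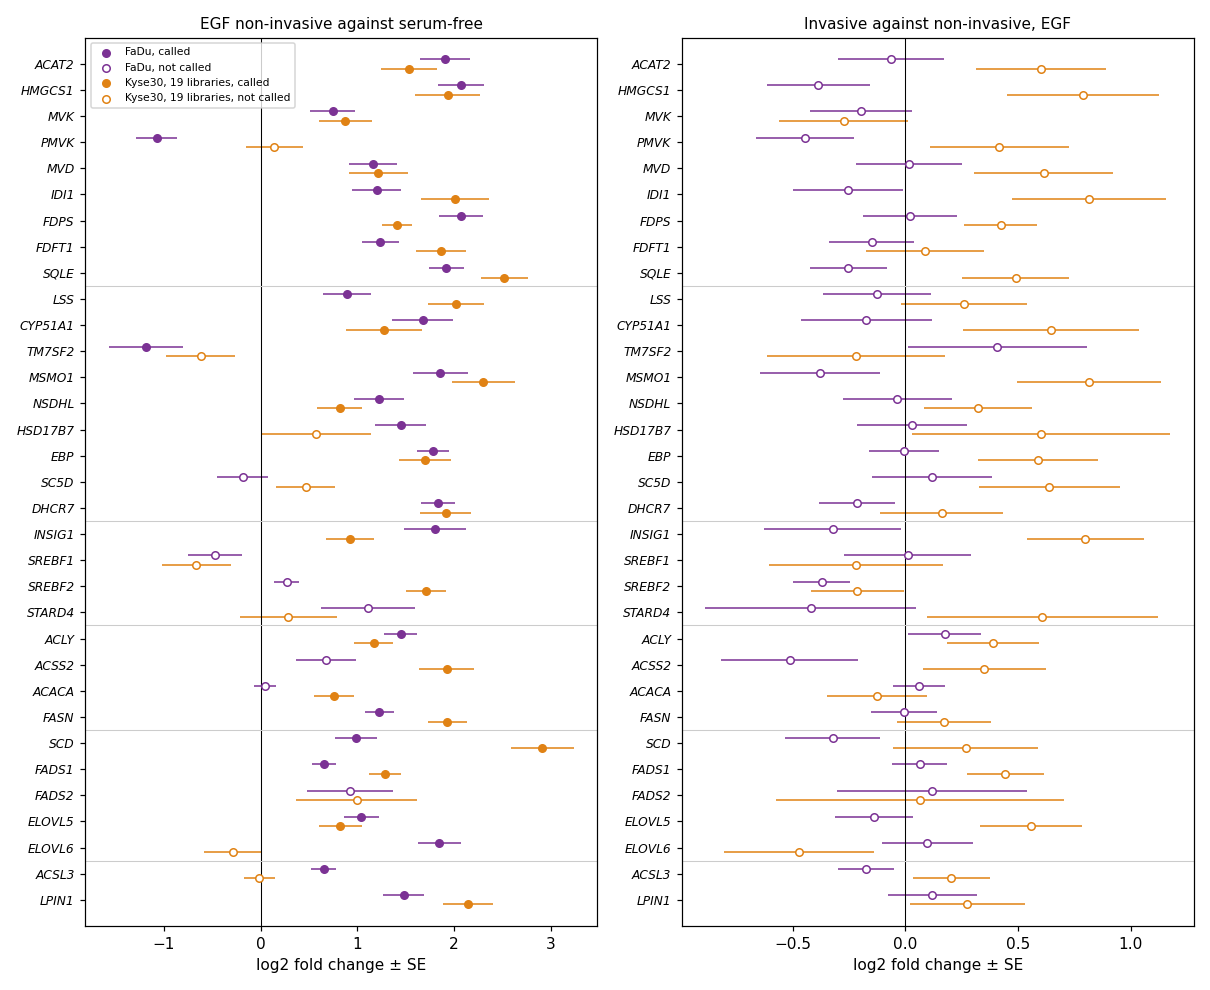
Log2 fold change ± SE of each of the 33 members, ordered by role with grey lines between roles, in FaDu (purple, 20 libraries) and Kyse30 (orange, 19 libraries). The left panel compares non-invasive cells under EGF with serum-free, where filled points (called) lie mostly to the right of 0. The right panel compares invasive with non-invasive cells, where no point is filled; its horizontal scale is finer.

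Of the 4 regulators and carriers, 2 (INSIG1 and SREBF2) were called in at least 1 line, and SREBF2 alone had a called difference between the lines. INSIG1, which holds SREBPs in the endoplasmic reticulum, was at 47, 52.1, 62.4 and 54.4 CPM in FaDu serum-free and 169.6, 188, 192 and 205 CPM in FaDu non-invasive libraries (1.80 ± 0.32, adjusted p = 1.4e-04). In Kyse30 it was at 104, 122, 129 and 81.4 CPM and 222, 191, 130.5 and 286 CPM. These did not overlap, and the change of 0.93 ± 0.36 was called over 19 libraries (adjusted p = 0.0068) and not over 20 (adjusted p = 0.097). The difference between lines was not called (-0.86 ± 0.49, adjusted p = 0.26).

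SREBF2, the SREBP gene most tied to sterol synthesis, was at 22, 21.2, 16.5 and 19.1 CPM in Kyse30 serum-free and 45, 73, 74.7 and 65.6 CPM in Kyse30 non-invasive libraries (1.71 ± 0.26, adjusted p = 7.3e-05). In FaDu it was at 121, 126, 129.9 and 130.3 CPM and 159, 153, 157 and 142 CPM, which do not overlap but gave no call (0.27 ± 0.13, adjusted p = 0.079). The rise was larger in Kyse30 by 1.45 ± 0.25 (adjusted p = 3.9e-05). SREBF2 is also the member whose promoter stretch above holds the sterol regulatory element, and its exons overlap SREBF2-AS1 on the other strand. SREBF1, the gene of the SREBP most tied to fatty acids, was called in neither line. It was at 102, 75.8, 105 and 73.4 CPM in FaDu serum-free and 68.1, 71, 70.9 and 46 CPM in FaDu non-invasive libraries (-0.47 ± 0.28, adjusted p = 0.17). In Kyse30 it was at 244, 265, 292 and 189 CPM and 145, 112, 223 and 148 CPM (-0.66 ± 0.32, adjusted p = 0.2). Both estimates are below 0, and its exons overlap RAI1 on the other strand. STARD4, a sterol carrier, was at 13.1, 9.62, 15 and 12.4 CPM and 29.8, 24.9, 26.3 and 26.6 CPM in FaDu. These did not overlap, yet the SE was wide (1.11 ± 0.49) and the gene was not called. In Kyse30 it stayed under 10 CPM in both groups.

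Of the 4 fatty acid synthesis genes, 2 rose in FaDu. ACLY, which splits citrate to acetyl-CoA, went from 62.7 ± 7.49 CPM to 170.5 ± 13.2 CPM (SD, n = 4 each; 1.45). FASN, the fatty acid synthase, was at 272, 289, 283 and 297 CPM in serum-free and 676, 637, 660.0 and 699 CPM in non-invasive libraries (1.23 ± 0.15, adjusted p = 1.6e-07). ACACA, acetyl-CoA carboxylase, was at 98.9, 95.5, 103 and 105 CPM and 98.8, 103, 109.7 and 105 CPM, overlapping (0.05 ± 0.11, adjusted p = 0.75). ACSS2, which makes acetyl-CoA from acetate, was at 22.5, 18.5, 16.2 and 20.7 CPM and 27.3, 30.5, 28.8 and 37.5 CPM, without overlap but not called (0.68 ± 0.31, adjusted p = 0.069).

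In Kyse30 FASN and ACSS2 were called over 20 libraries and all 4 genes over 19. FASN was at 179, 209, 198 and 187 CPM in serum-free and 431, 737, 844 and 931 CPM in non-invasive libraries (1.93 ± 0.22, adjusted p = 1.6e-06). ACSS2 was at 6.23, 9.64, 10.6 and 13.6 CPM and 39.9, 35.7, 31.9 and 43.5 CPM (1.92 ± 0.49, adjusted p = 0.0098). Each non-invasive library was above every serum-free library in both genes. In the fit over both lines without the shallow library, the Kyse30 change exceeded that of FaDu for 3 genes. The differences were 1.25 for ACSS2 (adjusted p = 0.026), 0.70 for ACACA (adjusted p = 0.018) and 0.70 for FASN (adjusted p = 0.037). None of these 3 differences was called over all 40 libraries.

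SCD, the desaturase that makes oleate, had the largest change of the module in Kyse30. It was at 263, 295, 244 and 239 CPM in serum-free and 1096, 2221, 1803 and 2696 CPM in non-invasive libraries (2.91 ± 0.33, adjusted p = 1.6e-06, 7.51-fold). In FaDu it was at 449, 457, 491 and 484 CPM and 1008, 872, 913 and 934 CPM (0.99 ± 0.21, adjusted p = 5.3e-04). The change was larger in Kyse30 by 1.94 ± 0.41 (adjusted p = 8.7e-04). ELOVL6, which lengthens palmitate, had the opposite contrast between lines. It was at 13.1, 10.6, 13.6 and 11.6 CPM and 45, 45.4, 37.7 and 46.7 CPM in FaDu (1.84 ± 0.22, adjusted p = 1.3e-07). In Kyse30 it was at 24.9, 23.8, 33.8 and 18.2 CPM and 37.1, 20.1, 11.9 and 13.5 CPM, overlapping and not called (-0.28 ± 0.42). The difference between lines was -2.12 ± 0.46 (adjusted p = 9.4e-04).

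FADS1, a desaturase of polyunsaturated fatty acids, rose by 0.65 in FaDu and 1.28 in Kyse30. ELOVL5, which elongates them, rose by 1.04 in FaDu, and in Kyse30 by 0.82 over 19 libraries only. FADS2 was below 20 CPM in every library and was called in neither line. FADS1 and FADS2 overlap each other on opposite strands, and FADS2 overlaps FEN1 on the same strand, so their reads may mix. LPIN1, a phosphatidate phosphatase that makes diacylglycerol, was at 24.1, 27.4, 25.8 and 27.5 CPM in FaDu serum-free and 63.6, 65, 78.7 and 85.9 CPM in FaDu non-invasive libraries (1.48 ± 0.21, adjusted p = 1.7e-06). In Kyse30 it was at 21.2, 26, 12.2 and 22.5 CPM and 77.7, 85.6, 109 and 92 CPM (2.15 ± 0.35, adjusted p = 1.4e-04). In both lines the groups did not overlap. ACSL3, an acyl-CoA synthetase, rose by 0.65 in FaDu and was at 274 ± 26.1 CPM and 272 ± 53.7 CPM (SD, n = 4 each) in Kyse30, without a call.

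**Figure D3:**
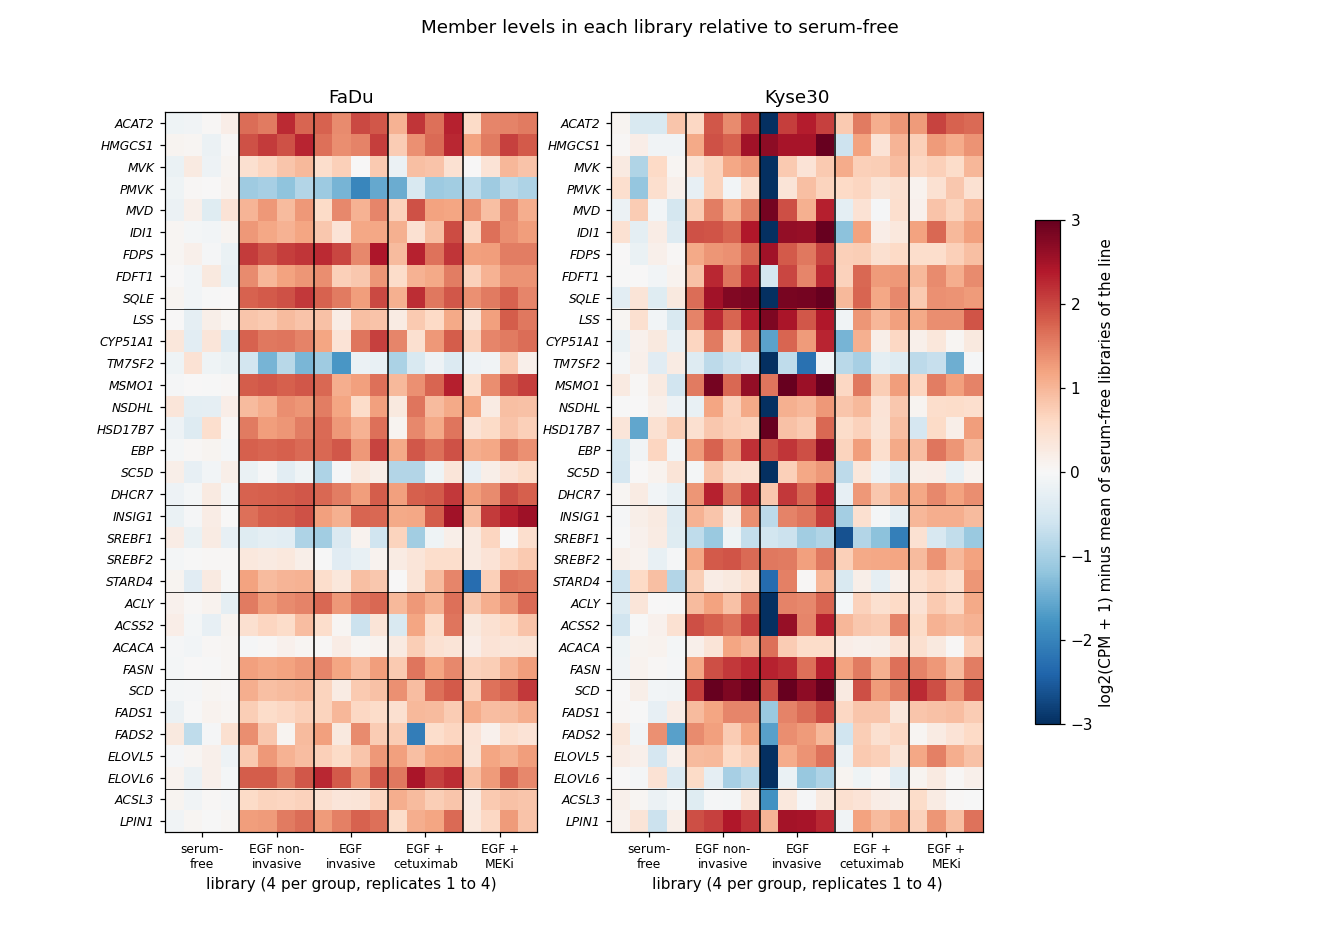
Log2(CPM + 1) of each member (rows, ordered by role) in each library (columns, 4 per group), minus the mean of the line's serum-free libraries. Red is above and blue below serum-free, on a scale that ends at 3 either way. PMVK is blue across the 4 FaDu EGF groups and TM7SF2 across all of these but the MEK inhibitor group, SREBF1 is blue across most Kyse30 groups, and the shallow Kyse30 invasive library has blue cells where its count was 0.

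Invasive and non-invasive cells under EGF were compared next, which asks whether synthesis genes differ with position in the spheroid. No member was called in FaDu, where 3% of all genes were called, or in Kyse30, where 0.409% were called over 20 libraries and 2.1% over 19. At an unadjusted p below 0.05, edgeR gave 2 of 33 members in FaDu, 4 in Kyse30 over 20 libraries and 10 over 19. The share of all genes below this unadjusted p was not counted in any comparison, so the member counts cannot be read against it. DESeq2 and limma-voom also called none in either line. The median log2 fold change of the members was -0.12 in FaDu, against -0.01 over all genes. In Kyse30 it was 0.14 over 20 libraries, against -0.15 over all genes, with 24 of 33 member estimates above 0. Over 19 libraries it was 0.39, with 27 above 0, and the values over all genes are not reported here. No difference between lines was called for any member.

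Single genes show the spread. In FaDu SCD was at 744, 559, 817 and 860.1 CPM in the invasive libraries, all below the non-invasive range of 872 to 1008 CPM (-0.32 ± 0.21, adjusted p = 0.48). FaDu SREBF2 was at 126, 100.0, 109 and 137 CPM, below the non-invasive range of 142 to 159 CPM (-0.37 ± 0.13, adjusted p = 0.12). MSMO1 and STARD4 also did not overlap, each lower in invasive cells. These 4 of 33 members compare with 6.81% of all genes that were lower without overlap. In Kyse30, INSIG1 was at 62.3, 301, 327 and 456 CPM in the invasive libraries. The first value is the shallow library, and the other 3 lie above every non-invasive library (0.80 ± 0.26, adjusted p = 0.1 over 19 libraries). SQLE was at 2.15, 181, 185 and 243 CPM in the same libraries and likewise exceeded the non-invasive range in all but the shallow one. SCD was at 988, 2333, 1670 and 3051 CPM, overlapping the non-invasive range. IDI1, ACAT2, ELOVL5 and FADS1 also exceeded the non-invasive range in all but the shallow library. The share of all genes that did so was not counted. With the shallow library included, no Kyse30 member separated the 2 groups completely. The 12 members at 0 counts in that library could not have separated upward, so this says little about them.

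With cetuximab added to EGF, most synthesis genes of FaDu spheroids were above serum-free, and few differed from the level under EGF alone. Against serum-free, an unselected group like this one, 26 of 33 members rose and 1 fell (PMVK). The background was 22.7% higher and 21.1% lower, and the median of the members was 1.19, against -0.01 for all genes. ELOVL6 changed most, at 38.4, 70.6, 53.4 and 60.0 CPM under cetuximab against 10.6 to 13.6 CPM in serum-free (2.19 ± 0.22, adjusted p = 8.7e-09). ACAT2 was at 24.4, 53.2, 37.4 and 59.5 CPM (1.94) and FDPS at 122, 311, 194 and 279 CPM (1.85). Replicate 1 was the lowest cetuximab library in each of these 3 genes. SREBF2, ACSS2 and ACACA, which had no call for EGF alone, were called under cetuximab at 0.43, 0.94 and 0.47. Whether these differ from the EGF response was tested against the non-invasive cells, where ACACA alone was called.

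In that comparison 1 of 33 members was called higher and none lower, where 3.64% of all genes were higher and 4.93% lower. ACACA was at 122, 168, 139 and 132 CPM under cetuximab and 98.8, 103, 109.7 and 105 CPM in the non-invasive cells (0.43 ± 0.11, adjusted p = 0.017). It lost its call in 3 of 15 other settings (only the 2 groups fitted, without cetuximab replicate 3, and without non-invasive replicate 1), with a log2 fold change of 0.33 to 0.46 over all settings. SQLE was at 365, 813, 524 and 637 CPM under cetuximab, on both sides of the non-invasive range (-0.18 ± 0.17). FASN was at 491, 871, 652 and 772 CPM (0.06 ± 0.15), INSIG1 at 119.8, 122, 191 and 311 CPM (-0.02 ± 0.30) and SCD at 1226, 889.7, 1481 and 1675 CPM (0.50 ± 0.21, adjusted p = 0.16). The spread over the 4 cetuximab libraries was wide, with INSIG1 running from 119.8 to 311 CPM. DUSP6, a phosphatase induced by the ERK kinases below MEK, was at 104 ± 36.6 CPM under cetuximab, 427 ± 65.5 CPM in non-invasive and 9.74 ± 2.43 CPM in serum-free libraries (SD, n = 4 each). Of 12 ERK output genes, 3 were lower than in non-invasive cells. Mitochondrial genes held 7.02% to 11% of cetuximab counts and 14.3% to 15.8% of serum-free counts, and COL1A1 was at 6.29 to 15.9 CPM against 17.5 to 23.2 CPM. Neither overlapped, and their part in the comparison with serum-free was not tested.

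With the MEK inhibitor, most synthesis genes of FaDu were above serum-free, while few ERK output genes were (2 of 12 higher and 1 lower). DUSP6 was at 9.68 ± 3.91 CPM (SD, n = 4), and 12 of 12 ERK output genes were lower than in non-invasive cells, with a median log2 fold change of -2.66. Against serum-free, 24 of 33 members rose and 1 fell, with a background of 10.8% higher and 8.63% lower. The median of the members was 1.04. INSIG1 was at 103, 233, 273 and 320.3 CPM (2.11 ± 0.32, adjusted p = 1.3e-04). HMGCS1 was at 227, 291, 409 and 351 CPM (1.71) and SCD at 767, 1455, 1607 and 2053 CPM (1.64). Replicate 1 was the lowest of the 4 in each, and still above all serum-free libraries. The inhibitor group had 7.87% to 14.6% mitochondrial counts, against 14.3% to 15.8% in serum-free. Its summed squamous markers were at 7540 to 8923 CPM, above both serum-free (5966 to 6221 CPM) and non-invasive libraries (5545 to 6638 CPM), and their part was not tested.

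Against the non-invasive cells the MEK inhibitor shifted members both ways: 4 rose and 4 fell, with 14.8% of all genes higher and 14.9% lower, so that the share of members called was near the background. TM7SF2 was at 8.11, 8.30, 16.1 and 10.2 CPM, above each non-invasive library (1.40 ± 0.38, adjusted p = 0.0063). SREBF1 was at 106, 139, 88.2 and 125 CPM, also above each of them (0.84 ± 0.28, adjusted p = 0.027). SCD rose by 0.66 and FADS1 by 0.37. Of those that fell, HSD17B7 was at 18, 20.3, 24.6 and 22.5 CPM against 40.8, 33.1, 34.8 and 40.4 CPM (-0.80 ± 0.25, adjusted p = 0.017). FDPS was at 149, 150.1, 184 and 183 CPM against 236 to 279 CPM (-0.66), LPIN1 at 32.8, 41, 65.3 and 47.9 CPM (-0.64), and EBP changed by -0.46. SREBF1 and EBP lost their calls in 5 of 15 other settings and SCD in 4. SREBF2 was at 152, 168, 199.6 and 220.4 CPM and was not called (0.28 ± 0.13, adjusted p = 0.098).

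The 2 drug groups of FaDu, both unselected, were also compared with each other. LSS was higher with the MEK inhibitor, at 20.8, 38.3, 58.1 and 49.1 CPM against 18.8, 27.7, 24.1 and 35.4 CPM with cetuximab (0.66 ± 0.24, adjusted p = 0.049), a call lost in 8 of 15 other settings (adjusted p up to 0.19). ELOVL6 was lower, at 23.6, 31.1, 43.2 and 34.9 CPM against 38.4, 70.6, 53.4 and 60.0 CPM (-0.73 ± 0.20, adjusted p = 0.011). These 2 of 33 compare with 19.7% of all genes called, and both pairs of groups overlap.

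**Figure D4:**
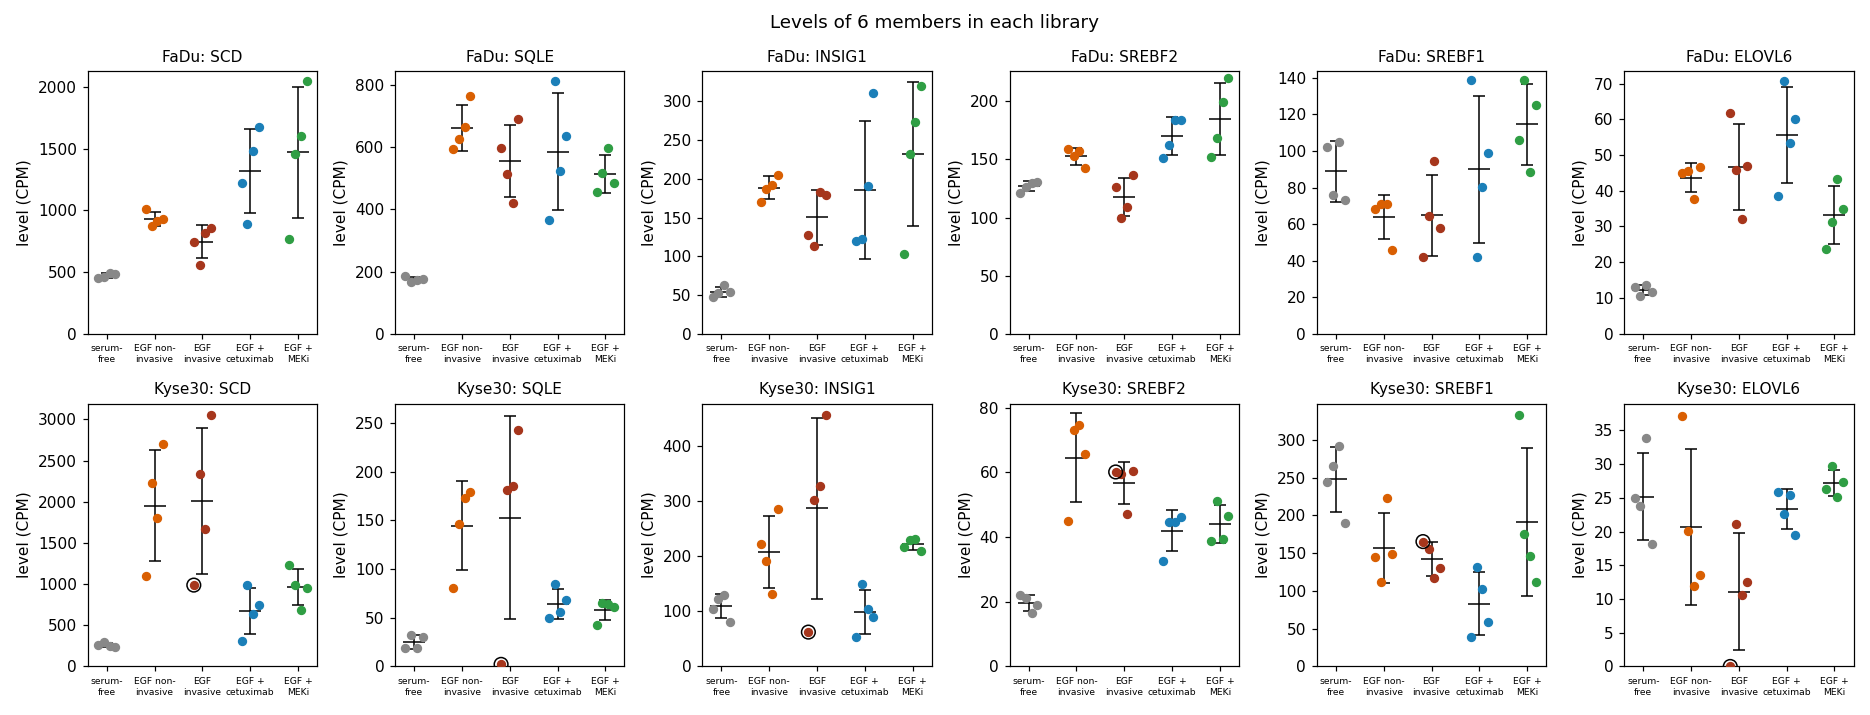
Levels in CPM of SCD, SQLE, INSIG1, SREBF2, SREBF1 and ELOVL6 in each library of FaDu (top) and Kyse30 (bottom), with bars for mean ± SD (n = 4) and a ring on the shallow library; vertical scales differ between panels and start at 0. Kyse30 SCD lies at 1096 to 2696 CPM in non-invasive cells and at 313 to 1232 CPM under the drugs, while FaDu SCD lies at 872 to 1008 CPM and at 767 to 2053 CPM.

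In Kyse30 many synthesis genes were lower with cetuximab than in the non-invasive cells. Over 20 libraries 6 of 33 members fell (background 3.08% lower), and over 19 libraries 16 fell (background 9.76% lower), with none higher in either fit. The median was -0.73, against -0.03 for all genes. For 13 members every cetuximab library was below every non-invasive one, against 10.5% of all genes. SCD was at 313, 993, 631 and 750.4 CPM under cetuximab, below all non-invasive libraries (-1.54 ± 0.32, adjusted p = 0.0045). LPIN1 was at 18.4, 46.7, 38.9 and 44.8 CPM (-1.29 ± 0.33, adjusted p = 0.022) and HMGCS1 at 38.1, 139, 78.9 and 121 CPM (-1.27 ± 0.30, adjusted p = 0.014). Only HMGCS1 of these 3 overlapped, through 1 cetuximab library and 1 non-invasive library. MSMO1, DHCR7 and FDPS were the others called over 20 libraries, at -1.21, -1.06 and -0.77. Of 18 other settings, MSMO1 and DHCR7 each lost the call in 6, LPIN1 in 5, and HMGCS1 and FDPS each in 4. Only SCD was called in every setting.

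Leaving out the shallow library, which belongs to neither group, added MVD, IDI1, SQLE, LSS, EBP, INSIG1, SREBF2, ACLY, ACSS2 and FADS1. IDI1 had the largest change of these, -1.67 ± 0.34 (adjusted p = 0.0019). SQLE was at 49.2, 84.4, 56 and 68.4 CPM (-1.16, adjusted p = 7.2e-04) and INSIG1 at 52.6, 149.6, 104 and 88.9 CPM (-1.07, adjusted p = 0.0042). SREBF2 was at 32.7, 44.6, 44.7 and 46.1 CPM (-0.62, adjusted p = 0.025). The 2 non-invasive libraries with high MALAT1 were the lower 2 of their group for LSS, MSMO1 and DHCR7. Without them and the shallow library 18 members fell, with a median of -0.91. DUSP6 was at 118 ± 70.7 CPM under cetuximab, 92.1 ± 11.4 CPM in non-invasive and 47.7 ± 9.49 CPM in serum-free libraries (SD, n = 4 each). Of 12 ERK output genes, none was called lower and 1 higher, and of 12 DNA replication genes 3 were higher. Over 20 libraries, 590 of 11976 genes were called in either direction. CDH5 was at 13.3 to 32.4 CPM under cetuximab and 10.1 to 14.6 CPM under the MEK inhibitor, against 3.23 to 5.66 CPM in non-invasive libraries. The summed squamous markers were at 929 to 1290 CPM under cetuximab and 1118 to 1393 CPM under the MEK inhibitor, against 1335 to 2339 CPM in non-invasive libraries. MALAT1 held 0.798% to 1.31% of cetuximab and 0.810% to 1.20% of MEK inhibitor counts, below all 4 non-invasive libraries (1.68% to 9.63%). The part of these measures in the results was not tested.

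Relative to serum-free, some synthesis genes of cetuximab-treated Kyse30 spheroids were higher and 1 was lower. Over 20 libraries 4 members rose (FDFT1, SREBF2, FASN and SCD; background 1.88% higher) and 1 fell (background 1.25% lower). Over 19 libraries 16 rose (background 8.72% higher) and the same 1 fell. FASN was at 447, 566, 403 and 606 CPM against 179 to 209 CPM (1.39 ± 0.22, adjusted p = 7.1e-04). SCD rose by 1.37, FDFT1 by 1.31 and SREBF2 by 1.09. Of 18 other settings, SCD lost its call in 3, FDFT1 in 10 and SREBF2 in 5. Mitochondrial genes held 8.54% to 16.5% of cetuximab and 9.39% to 13.4% of MEK inhibitor counts, below the 19.7% to 23.8% of serum-free, and their part was not tested. The gene that fell was SREBF1, at 39.1, 131, 103 and 58.6 CPM against 244, 265, 292 and 189 CPM (-1.57 ± 0.33, adjusted p = 0.0094). The 2 SREBP genes thus had calls of opposite sign in this comparison, and neither overlapped between groups.

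With the MEK inhibitor, fewer Kyse30 members were called against the non-invasive cells than with cetuximab. Over 20 libraries 1 member fell (FDPS), a share near the background of 2.91%, and over 19 libraries 7 fell (background 8.56%). The median was -0.47, against -0.02 for all genes. FDPS was at 119, 119.7, 135 and 155 CPM, below all non-invasive libraries (-0.74 ± 0.20, adjusted p = 0.03), a call lost in 7 of 18 other settings. The others over 19 libraries were SQLE at -1.32, MSMO1 at -1.05, ACSS2 at -0.97, FASN at -0.59, SCD at -1.02 and LPIN1 at -0.98. SQLE was at 42.8, 64.8, 63.6 and 61.2 CPM and ACSS2 at 15, 21.2, 19.7 and 21.2 CPM, each below every non-invasive library. SCD was at 1232, 994, 685 and 947 CPM and overlapped through its first library. DUSP6 was at 22.9 ± 7.53 CPM (SD, n = 4), and 6 of 12 ERK output genes fell.

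Against serum-free, 8 members rose over 20 libraries (background 2.29%) and 19 over 19 libraries (background 8.52%), and none fell. SCD rose by 1.89 ± 0.32 (adjusted p = 0.0013), LSS by 1.49 and FASN by 1.34. Of 18 other settings, HMGCS1, MSMO1 and EBP, also among the 8, lost their calls in 9, 10 and 7. The calls of LSS, DHCR7 and SREBF2 were lost in 2, 3 and 1. LSS was at 35.6, 42, 42.6 and 60.5 CPM and FASN at 541, 473, 372 and 565 CPM, both above every serum-free library. INSIG1 was at 217, 229, 231 and 208 CPM with the inhibitor, within the non-invasive range and above the 4 cetuximab libraries. Between the 2 drugs no member was called over 20 libraries, where 1.18% of all genes were called and edgeR gave 2 members at an unadjusted p below 0.05. DESeq2 and limma-voom each called 1. Over 19 libraries (background 2.24% higher) INSIG1 was higher with the MEK inhibitor (1.16 ± 0.25, adjusted p = 0.0065), as was ELOVL5 (0.72 ± 0.21, adjusted p = 0.046).

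**Figure D5:**
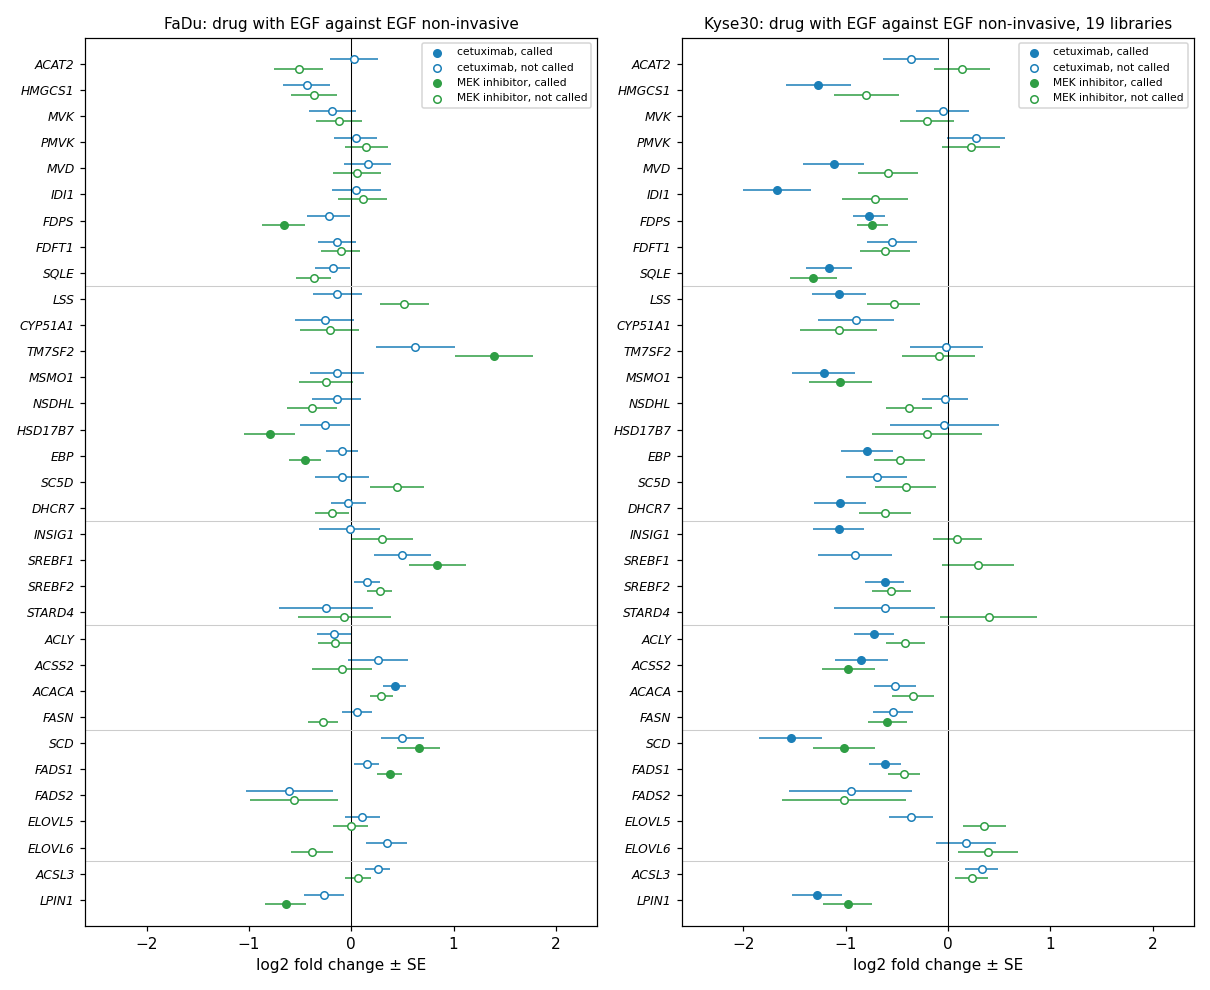
Log2 fold change ± SE of each member for cetuximab (blue) and the MEK inhibitor (green), each with EGF, against the non-invasive cells under EGF alone, in FaDu (left, 20 libraries) and Kyse30 (right, 19 libraries). Filled points are called. FaDu points lie around 0, and most Kyse30 points lie to the left of it.

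The difference between lines in each response was tested in 1 model over both lines. For EGF non-invasive against serum-free, 3 members were called over 40 libraries (15.7% of all genes), the SREBF2, SCD and ELOVL6 differences given above. Without the shallow library 10 were called, 8 of them larger in Kyse30 and 2, ELOVL6 and ACSL3, smaller, where 13.8% of all genes were larger and 10.9% smaller. For cetuximab against non-invasive, SCD was called over 40 libraries (0.561% of all genes lower). Its effect was lower in Kyse30 by -2.01 ± 0.41 (adjusted p = 0.0046). IDI1, SREBF2, ACACA and FADS1 joined it without the shallow library, from -1.67 for IDI1 to -0.70 for FADS1 (background 1.43% lower). For the MEK inhibitor, SCD (-1.67 ± 0.41, adjusted p = 0.01) and SREBF2 (-0.82 ± 0.24, adjusted p = 0.035) were called over 40 libraries (background 2.83% lower). SQLE and FADS1 were added without the shallow library (background 5.63% lower). The remaining members had no call, which does not show that the lines respond alike. For SQLE under cetuximab, for example, the difference was -0.94 ± 0.52.

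The lines also differed before any addition. In serum-free spheroids 6 members were higher and 12 lower in Kyse30 than in FaDu, and 21.5% of all genes were higher and 22% lower. SQLE was at 18.9 to 32.4 CPM in Kyse30 and 166 to 185 CPM in FaDu (-2.81 ± 0.41, adjusted p = 5.6e-07). SREBF2 was at 16.5 to 22 CPM and 121 to 130.3 CPM (-2.70 ± 0.18, adjusted p = 1.4e-15). DHCR7 went the other way, at 128 to 177 CPM in Kyse30 and 27.8 to 37.4 CPM in FaDu (2.26 ± 0.28, adjusted p = 8.1e-09). SREBF1 was higher in Kyse30 by 1.47 and INSIG1 by 1.00. HSD17B7, FADS1, EBP and ACACA were lower by -1.99, -1.43, -1.37 and -1.45. In EGF non-invasive cells Kyse30 SREBF2, at 45 to 74.7 CPM, was still below the FaDu serum-free range. These levels were scaled within each line and are not on a shared scale, unlike the fold changes between lines. On raw totals the means of these SREBF2 groups were 59.5 CPM and 132 CPM.

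Other genes of lipid metabolism were counted from lists that exclude the 33 members. The shares over all genes to read them against are those given above, 25.3% higher and 24.7% lower in FaDu, and 8.1% and 4.76% in Kyse30. Several FaDu counts below are near these shares. Of 9 genes of the machinery that moves and cuts SREBPs, 1 rose and 3 fell in FaDu non-invasive cells against serum-free. Among those that fell were MBTPS1, the site-1 protease (-0.77), and SCAP, the SREBP escort (-0.60). In Kyse30 1 rose, RNF139 (1.14), and none fell. A list of 8 genes holds those of the sterol-sensing receptor LXR itself, some of its targets and sterol exporters. Of these, none rose and 4 fell in FaDu, led by SMPDL3A (-1.96), ABCA7 (-1.57) and the exporter ABCG1 (-1.34). None of the 8 was called in Kyse30 over 20 libraries. Sterol transport and storage genes split in FaDu, with 5 of 11 higher and 4 lower. TMEM97 (1.46) and the lysosomal cholesterol carrier NPC1 (1.27) rose, and the lysosomal lipase LIPA fell (-0.91). In Kyse30 the receptor SCARB1 rose (1.44) and NPC2 fell (-0.70).

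Of the fatty acid oxidation genes, 1 of 16 rose and 4 fell in FaDu. In Kyse30 none rose and 2 fell, CPT1A (-1.34), which admits fatty acids to mitochondria, and ACADM (-1.21). Of 10 genes that supply citrate and NADPH, 1 rose and 2 fell in FaDu, where IDH1 was at -1.26. Of 17 genes of triglyceride and phospholipid assembly, 5 rose and 3 fell, with GPAT3 at 1.64. Isoprenoid branch genes gave 4 of 12 higher and 1 lower in FaDu, led by PDSS1 (1.87). Other elongation and desaturation enzymes gave 3 higher and 1 lower of 12, and in Kyse30 FADS3 rose by 2.70. Other acyl-CoA synthetases and uptake genes gave 2 higher and 1 lower of 4 in FaDu. In the invasive cells of FaDu, where no synthesis gene was called, the lipid droplet coat gene PLIN2 fell against non-invasive cells (-1.87), as did ACSL1 (-1.03) and NPC2 (-0.56).

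With the MEK inhibitor against FaDu non-invasive cells, 3 of the 8 genes of the LXR and sterol export list rose and none fell. The risers were ABCA7 (1.70), LPCAT3 (0.95) and ABCG1 (0.93), where 14.8% of all genes were higher. Of the 10 citrate and NADPH genes 4 rose, with IDH1 at 1.24. This comparison and that of EGF with serum-free share the non-invasive libraries. In Kyse30 cetuximab left TMEM97 higher (1.84) and NPC1 lower (-0.91) than in non-invasive cells. The acyl-CoA synthetase ACSL5 was also lower (-1.37).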

How the data were processed

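RNA was measured in 40 libraries of FaDu and Kyse30 spheroids made with the Lexogen QuantSeq 3′ V2 kit, which reads transcript ends, so that counts do not grow with transcript length. The authors deposited whole-number read counts per gene, not normalized, for 12655 genes. STAR, HTSeq and GRCh38 are named in the submitters' processing notes, and their versions and the annotation, like the strand setting, were given in no label. All columns matched 1 sample each, and groups came from the sample titles. A separate label on cell selection reads the same for invasive and non-invasive samples, so that this division rests on the titles.

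Genes were filtered with edgeR 4.0.16 (filterByExpr, minimum count 10, R 4.3.3), scaled by TMM and tested with the quasi-likelihood test with robust dispersions, with all 20 libraries of a line in 1 fit, and p-values were adjusted by Benjamini-Hochberg over all genes tested at 0.05. Differences between lines came from 1 fit over 40 libraries. Levels are CPM, TMM-scaled within each line, with SD (n = 4). Those of the cell type markers are scaled by library totals only. Replicates were not labelled as separate cultures: the p-values cover the spread of these 4 samples per group, possibly technical. No pair of libraries agreed within sampling noise. The test was checked on simulated data. Alternatives were median-ratio size factors, no filter and a stricter filter, DESeq2 1.42.0, limma-voom 3.58.1, a replicate block, fits of 2 groups, and leaving out libraries. The members and lists were chosen with earlier results of these data known. Every member is accounted for. Levels per library are given for INSIG1, SREBF1, SREBF2, SQLE, HMGCS1, FASN, SCD, ACSS2, LPIN1 and the 3 largest called changes of each comparison. Background lists are given by counts and up to 3 called genes, and some of their genes are not reported here. PMVK, DHCR7 and IDI1 were also named with values after those had been seen. No label names molecular identifiers, and floors cover counting error only. Promoters are RefSeq sequences of GRCh38.p14, and a longer form of the sterol regulatory element was also searched and is not reported.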

Additional observations from a re-analysis of the deposited data

Results flagged for a closer look

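In 330 groups of 4 libraries (33 members, 10 groups), the highest or lowest library stood apart from the other 3 by Dixon's test in 15, or 4.55%. Chance gives about 1 in 20. In FaDu these were ACAT2 in MEK inhibitor replicate 1 (17.3 CPM, others 32.7 to 35.1), LSS in invasive replicate 2 (18.5, others 28.9 to 29.9), TM7SF2 in serum-free replicate 2 (12.7, others 7.81 to 8.23) and SREBF1 in non-invasive replicate 4 (46, others 68.1 to 71). FADS2 (0.630, others 8.84 to 10.5) and ELOVL5 (66.5, others 81.1 to 83.8) stood apart in FaDu cetuximab replicate 2.

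In Kyse30, MEK inhibitor replicate 1 was low for SQLE (42.8 CPM, others 61.2 to 64.8) and NSDHL (34.4, others 47.1 to 48.5), and replicate 4 was high for STARD4 (11.5, others 5.96 to 6.70). SREBF2 was low in cetuximab replicate 1 (32.7, others 44.6 to 46.1) and in invasive replicate 3 (47.2, others 59.4 to 60.3). ACACA was high in cetuximab replicate 4 (50.1, others 41.1 to 42.2) and in the shallow invasive replicate 1 (118, others 54.5 to 63.1), where HSD17B7 was high too (42.9, others 5.70 to 11.9). ELOVL5 was low in serum-free replicate 3 (19.6, others 31.4 to 33).

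In 6 cases the response of a member differed between the lines in the test of that difference, each as the Kyse30 minus the FaDu log2 fold change. For non-invasive against serum-free these were SREBF2 (1.45), SCD (1.94) and ELOVL6 (-2.12). For cetuximab against non-invasive it was SCD (-2.01), and for the MEK inhibitor against non-invasive SCD (-1.67) and SREBF2 (-0.82). Of these 6, the 3 of the EGF comparison were called under every alternative run, and none of the drug differences was.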

How the results depend on the processing

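Each count of called members was recomputed under the alternatives. With all libraries kept, counts against serum-free in FaDu were 25 to 31 (EGF, 26 as reported), 26 to 28 (cetuximab, 27) and 25 to 27 (MEK inhibitor, 25), and 25, 25 and 23 of these genes were called in every setting run. In Kyse30, 13 of the 17 EGF calls were made in every setting. No call changed direction. The choices that moved counts were these. Leaving out the shallow library gave 17 (cetuximab) and 19 (MEK inhibitor) against serum-free, 16 and 7 against non-invasive, 2 between drugs, and 10, 5 and 4 differences between lines (EGF, cetuximab, MEK inhibitor). Leaving out also the 2 high-MALAT1 libraries, chosen after seeing the data, gave 17, 19, 18, 12 and 2 in the Kyse30 comparisons in that order, and leaving out those 2 alone gave 2 for the MEK inhibitor against non-invasive. Fits of only the 2 groups gave 12, 18, 13, 9 and 1 in Kyse30, and 0 for both cetuximab against non-invasive and between drugs in FaDu. DESeq2 gave 8 and 13 against serum-free and 1 between drugs in Kyse30, and 7 and 3 differences between lines for EGF and cetuximab. limma-voom gave 3 and 5 against serum-free, 2 for the MEK inhibitor against non-invasive and 1 between drugs. Median-ratio scaling gave 3 and 0 against non-invasive for cetuximab and the MEK inhibitor. It moved the median log2 fold change of all Kyse30 genes from 0.03 to -0.08 for EGF against serum-free and from -0.02 to 0.09 for the MEK inhibitor against non-invasive, and every called member had the direction of its mean unchanged under it and under raw totals. Without a filter 1 member differed between drugs in FaDu.

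Leaving out single replicates gave 25 to 27, 25 to 28 and 23 to 27 (FaDu EGF, cetuximab and MEK inhibitor against serum-free), 14 to 17 (Kyse30 EGF), 0 to 2 (FaDu cetuximab against non-invasive), 5 to 7 (FaDu MEK inhibitor against non-invasive), 1 to 6 (FaDu between drugs), 2 to 4 and 3 to 5 (Kyse30 cetuximab and MEK inhibitor against serum-free), 1 to 8 and 0 to 3 (the same against non-invasive), 0 to 1 (Kyse30 between drugs), 3 to 10, 0 to 6 and 0 to 6 (differences between lines for EGF, cetuximab and MEK inhibitor), and 11 to 21 (serum-free between lines, 18 as reported). The lowest Kyse30 count for cetuximab against non-invasive came without cetuximab replicate 3 or non-invasive replicate 4. That for the MEK inhibitor came without any one of inhibitor replicates 1, 2 and 3 and non-invasive replicates 2, 3 and 4. Same-numbered replicates deviated together in few cases, with correlations of -0.19 to 0.31 in FaDu and -0.12 to 0.35 in Kyse30. The main fits do not use the numbers as pairs. With the number as a replicate block the counts were 28, 28 and 26 against serum-free in FaDu and 16, 5 and 9 in Kyse30, 0 in each line for invasive cells, and 19 for serum-free between lines. In 5 of 20 FaDu and 9 of 20 Kyse30 libraries the best match was the own number. Whether some same-numbered libraries are paired is not settled by this check. Depth limits members below about 10 CPM (TM7SF2, FADS2, STARD4, HSD17B7 in Kyse30) and all values of the shallow library.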
